A study of Sus scrofa with 16 samples.

Results

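A set of 10 collagen genes that build networks or coat fibrils, rather than forming the fibrils of a scar themselves, was followed in the pig heart after ischemia/reperfusion (IR) injury. The genes were listed by name, with earlier results of these data known, so a share of all genes beside a count of them is description only. They were the collagen VI chains *COL6A1*, *COL6A2* and *COL6A3*, the collagen VIII chains *COL8A1* and *COL8A2*, and *COL12A1*, *COL14A1*, *COL15A1*, *COL16A1* and *COL18A1*. All 10 of these 10 genes were present among the 22629 genes of the deposited tables, 9 by symbol and *COL6A1* by its Ensembl identifier ENSSSCG00000022506. Myocardial RNA was sequenced from 8 pigs, each of which gave 1 sample of the scar zone and 1 of the border zone, so there were 16 samples with 4 pigs per zone and surgery. White Yorkshire-Landrace farm pigs were operated on at about a month of age. In the IR group the left anterior descending coronary artery was snared for 1 h and then reperfused. In the sham group the suture was placed but not tightened, so the sham "scar zone" is the matching site of a heart without occlusion. All hearts were taken 4 weeks after surgery. The IR animals were females 2 and 14 and males 9 and 11, and the sham animals were females 4 and 5 and males 12 and 13. The scar zone samples of IR pigs also hold adjoining viable myocardium, and all samples are pieces of whole tissue.

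Collagen VI forms beaded filaments in the matrix that surrounds cells, and a fragment cut from the end of its *COL6A3* chain is known as endotrophin. Collagen VIII is a short-chain collagen that builds open lattices and is best known from vessel walls and the cornea. Collagens XII, XIV and XVI, encoded by *COL12A1*, *COL14A1* and *COL16A1*, are FACIT collagens, fibril-associated molecules with interrupted triple helices that sit on the surface of fibrils made of collagen I and its relatives. Collagens XV and XVIII are multiplexins of the basement membrane zone, from whose ends the fragments restin and endostatin are released. They are grouped here with the FACIT collagens but are not members of that class.

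Levels are given as CPM, the estimated counts of a gene scaled to a common library total by the TMM method of edgeR. Estimated counts summed to between 15427663 and 49045206 per library, and 3 counts correspond to 0.0612 to 0.194 CPM, a floor that covers counting error only. Each of the 10 genes was above that floor in all 16 samples and passed the filter on low counts. The libraries of IR males 9 and 11 were deeper than those of IR females 2 and 14, with 36509911 and 34251150 against 17595342 and 15427663 counts in the scar zone. A single library stood apart: the scar zone library of female IR pig 14 held 4.49 CPM of the Y-linked gene *DDX3Y* and 0.409 CPM of *KDM5D*, where the other 7 female libraries held 0.389 to 1.23 CPM and 0 CPM and the male libraries at least 68.4 and 4.27 CPM. Results without pig 14 are therefore given beside the main counts. Cell type markers of cardiomyocytes, fibroblasts and endothelium were present in all libraries. In bulk tissue, fewer cells of a type and less RNA per cell cannot be told apart.

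Collagen VI, XV and XVIII chains were the most abundant of the 10 in sham-operated myocardium. On the TPM scale, which divides by transcript length and so allows genes to be compared, the sham scar zone held 109 ± 8.20 TPM of *COL15A1*, 105 ± 24.1 of *COL6A1* and 98.1 ± 24.1 of *COL6A2* (mean ± SD, n = 4), and the ranges of neighbours in this order overlapped. *COL18A1* followed at 56.1 ± 7.36 TPM with a range below that of *COL6A2*, then *COL6A3* at 39.4 ± 10.3 TPM and *COL14A1* at 30.9 ± 2.71 TPM, again with overlapping ranges. *COL8A1* at 10.95 ± 2.61 TPM and *COL16A1* at 9.82 ± 1.82 TPM overlapped each other and lay below *COL14A1*. *COL12A1* at 5.10 ± 0.589 TPM and *COL8A2* at 0.407 ± 0.0870 TPM were each separated from the gene above. In the sham border zone *COL15A1* was also at the top of the order with 110.4 ± 20.8 TPM and *COL8A2* at the bottom with 0.336 ± 0.212 TPM.

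In the IR scar zone the order of the means was different and the ranges were wide. *COL6A1* stood at 197 ± 140.0 TPM and *COL6A2* at 164 ± 113 TPM, *COL15A1* had a mean of 85.2 ± 16.0 TPM, and all neighbours in the order overlapped. In the IR border zone *COL6A1* was also first, at 88.3 ± 23.5 TPM, with *COL15A1* at 85.3 ± 17.9 TPM. By animal the order varied: in the scar zone *COL6A1* was above *COL15A1* in sham pigs 4 and 5 and below it in IR pig 14. The summed scar zone level of the 10 genes was 482, 1420 and 964 TPM in IR pigs 2, 9 and 11 and 329 TPM in pig 14, against 377 to 528 TPM in the sham scar zone. Pigs 9 and 11 were above all 4 sham pigs, pig 14 below all of them and pig 2 within their range. On log2(TPM + 1) the median log2 fold change of all genes, IR over sham, was 0.15 in this zone, beside 0.03 with TMM scaling. That shift of scale is part of each TPM sum. *COL15A1* made up 14.3% ± 8.73 of that sum after IR and 23.8% ± 2.58 of it in sham pigs of the same zone, while *COL8A2* made up 0.391% ± 0.225 and 0.0913% ± 0.0335 (mean ± SD, n = 4).

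**Figure D1:**
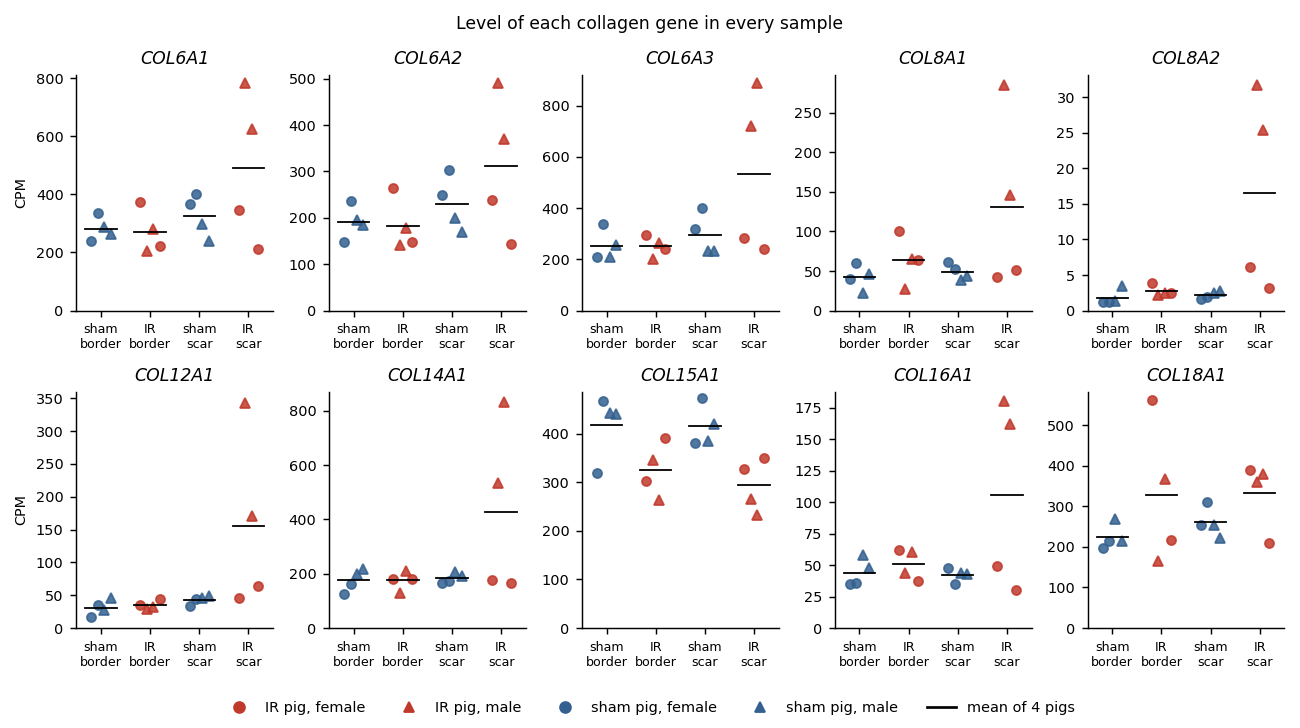
CPM of each of the 10 collagen genes (y axis, from 0) in every sample, by zone and surgery (x axis), with circles for females, triangles for males and a line at the mean of 4 pigs. The 2 male IR pigs are the highest points of the IR scar zone in 8 panels. In the scar zone all 4 IR pigs are above sham for *COL8A2*, and all 4 are below sham for *COL15A1*. For *COL8A2* the lowest IR pig, 14, is at 3.13 CPM beside 2.81 CPM in the highest sham pig.

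The scar zone of IR pigs was compared with that of sham pigs to ask which of these collagens differ at the site of injury. *COL8A2*, *COL12A1*, *COL8A1*, *COL16A1* and *COL14A1* were on average 2.30-fold to 7.47-fold higher after IR, and *COL15A1* was lower, at 0.706 of the sham level. The collagen VI chains and *COL18A1* were higher by less than 2-fold. The differences came mainly from male pigs 9 and 11, and with all genes considered no gene passed an adjusted p-value of 0.05. The test was the quasi-likelihood test of edgeR on 14023 genes, and a gene counted as past the threshold when it changed 2-fold or more with a p-value no higher than 0.05, the p-value being either unadjusted or adjusted by Benjamini-Hochberg.

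At the unadjusted p-value 5 of the 10 genes were past this threshold, all higher, where 2.74% of all tested genes were higher by the same rule. At the adjusted p-value 0 of the 10 passed and 0% of all genes did. By unadjusted p-value alone, 6 of the 10 and 1572 of the 14023 genes were at or under 0.05. DESeq2 gave 5 of the 10 at its unadjusted p-value and 1 at its adjusted p-value, *COL8A2*, with 37 genes higher and 15 lower over all genes. The median log2 fold change was 1.02 over the 10 genes and 0.03 over all genes. Leaving out 1 pig at a time gave 2 to 6 of the 10 at the unadjusted p-value: 2 without IR pig 9 or without sham pig 5, 12 or 13, 3 without IR pig 11, 4 without sham pig 4, and 6 without IR pig 2 or 14. The share of all genes higher by the same rule ran from 1.51% without IR pig 11 to 4.80% without IR pig 14. It was 1.73% without IR pig 9, and 1.87%, 2.27% and 2.68% without sham pigs 5, 12 and 13. *COL8A2* and *COL12A1* were past the threshold in all 8 of these fits. With sex as a covariate the count was 2 of the 10, where 1.94% of all genes were higher. By limma on log2(TPM + 1) it was 1 of the 9 genes that passed the TPM filter, where 1.04% were.

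Collagen VI was measured through its 3 main chains. *COL6A1* was at 348, 784, 626 and 211 CPM in the scar zone of IR pigs 2, 9, 11 and 14, and at 366, 401, 298 and 241 CPM in sham pigs 4, 5, 12 and 13. *COL6A2*, the partner chain, was at 239, 492, 369 and 143 CPM in the same IR pigs and at 249, 302, 200.03 and 169.5 CPM in the sham pigs. For both, pigs 9 and 11 were above every sham pig, pig 14 was below every sham pig, and the groups overlapped. *COL6A3*, the long chain that carries endotrophin, was at 283, 719, 887 and 240.2 CPM after IR and at 317.5, 401, 231 and 232 CPM in sham pigs. Here too pigs 9 and 11 were high and the other 2 IR pigs lay within the sham range. The log2 fold changes were 0.59 ± 0.37 for *COL6A1*, 0.43 ± 0.35 for *COL6A2* and 0.84 ± 0.41 for *COL6A3* (± SE), and edgeR's adjusted p-values were 0.523, 0.608 and 0.469.

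Collagen VIII held the gene with the highest fold change of the 10. *COL8A2* was at 6.07, 31.7, 25.4 and 3.13 CPM in IR pigs 2, 9, 11 and 14, and at 1.67, 1.90, 2.495 and 2.81 CPM in sham pigs 4, 5, 12 and 13. The groups did not overlap, which was true, in the higher direction, of 2.2% of all tested genes. The gap was narrow at IR pig 14, the library with Y-linked counts, at 3.13 CPM beside 2.81 CPM in sham pig 13. The part of whatever brought those Y-linked counts in the *COL8A2* level of pig 14 was not tested. The fold change of *COL8A2* was 7.47, a log2 fold change of 2.90 ± 0.66, with an unadjusted p-value of 0.00155 and an adjusted p-value of 0.438 by edgeR. DESeq2 gave a log2 fold change of 2.88 ± 0.58 with an adjusted p-value of 0.000916. *COL8A1*, which forms lattices alone or with *COL8A2*, was at 42.4, 285, 146 and 51.6 CPM after IR and at 61.4, 52.5, 39.1 and 44.2 CPM in sham pigs. Females 2 and 14 lay within the sham range and males 9 and 11 above it. The log2 fold change of *COL8A1* was 1.41 ± 0.54, with an unadjusted p-value of 0.0269 and an adjusted p-value of 0.438 by edgeR, and it stayed past the unadjusted threshold in 4 of the 8 fits that left out a pig. It was 0.67 without IR pig 9.

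For each of the FACIT collagens male IR pigs 9 and 11 were above all sham pigs, and the females differed by gene. *COL12A1* was at 45.1, 343, 170 and 64.2 CPM in IR pigs 2, 9, 11 and 14, and at 33.1, 44.7, 45.3 and 48.0 CPM in sham pigs 4, 5, 12 and 13. Pigs 9, 11 and 14 were above all sham pigs and pig 2 was within their range. *COL14A1* was at 175, 535, 834 and 165.0 CPM after IR and at 165.4, 174, 207 and 192.5 CPM in sham pigs, with pig 2 within the sham range and pig 14 just below the lowest sham pig. *COL16A1* was at 49.5, 179.9, 162 and 30.4 CPM after IR and at 48.0, 34.95, 43.9 and 42.6 CPM in sham pigs, with pig 2 just above the highest sham pig and pig 14 the lowest of the 8. The log2 fold changes were 1.86 ± 0.55 for *COL12A1*, 1.20 ± 0.47 for *COL14A1* and 1.31 ± 0.50 for *COL16A1*, with unadjusted p-values of 0.00787, 0.0304 and 0.0257 and an adjusted p-value of 0.438 for each by edgeR. The log2 fold change of *COL12A1* was 1.10 without IR pig 9. *COL14A1* was past the unadjusted threshold in 2 and *COL16A1* in 3 of the 8 fits that left out a pig.

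The multiplexins were measured through *COL15A1* and *COL18A1*, neither of which was past the 2-fold threshold. *COL15A1* was at 328, 267, 233 and 350.3 CPM in IR pigs 2, 9, 11 and 14, and at 381, 474, 385 and 421 CPM in sham pigs 4, 5, 12 and 13. All 4 IR pigs were below all 4 sham pigs, which was true, in the lower direction, of 2.65% of all tested genes. The log2 fold change of *COL15A1* was −0.50 ± 0.16, with an unadjusted p-value of 0.00971 and an adjusted p-value of 0.438 by edgeR, short of the 2-fold threshold. It lay between −0.60 and −0.40 with any pig left out. On the TPM scale the groups overlapped, since IR pig 9 was at 106 TPM and the sham pigs at 103 to 120.2 TPM. The log2 fold change was −0.37 ± 0.15 on log2(TPM + 1), a scale on which the median of all genes was 0.15 above 0. *COL18A1*, the source of endostatin, was at 389, 359, 379.5 and 209 CPM after IR and at 255, 311, 254 and 222 CPM in sham pigs. IR pigs 2, 9 and 11 were above all sham pigs and pig 14 was below them, and the log2 fold change of 0.35 ± 0.20 had an adjusted p-value of 0.506 by edgeR.

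**Figure D2:**
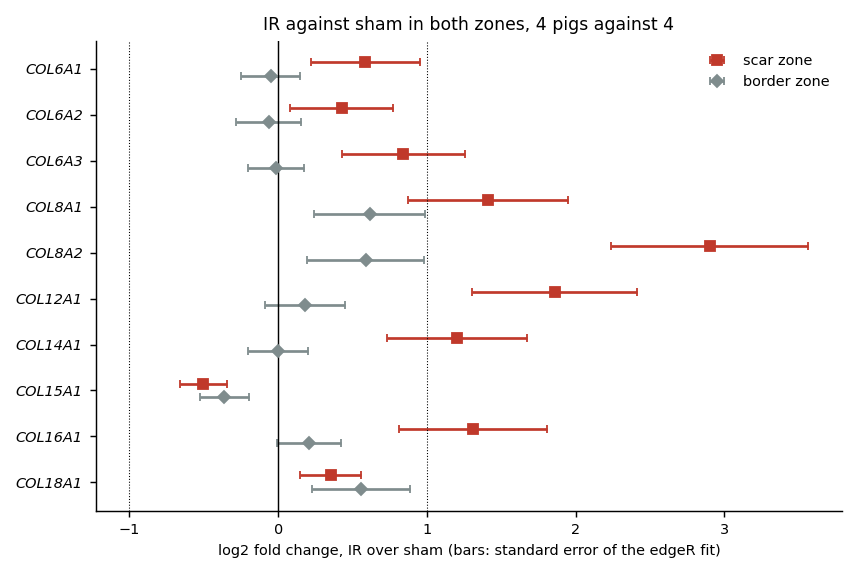
Log2 fold change of IR over sham (x axis) for each gene in the scar zone (squares) and border zone (diamonds), with bars for the standard error of the edgeR fit and dotted lines at a 2-fold change. In the scar zone the 5 genes past the dotted line run from 1.20 for *COL14A1* to 2.90 for *COL8A2*, and in the border zone no gene is past 0.61.

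Other genes of the same matrix were examined as lists. These, like the marker lists below, were chosen with earlier results of these data known. Of 9 tested further chains of these collagen classes, 2 were past the unadjusted threshold. *COL6A5*, a later-found collagen VI chain, was higher by a log2 fold change of 2.86 ± 0.78, and by 1.54 without IR pig 9. *COL9A3*, a chain of the cartilage FACIT collagen IX, was at 0.87, 4.24, 3.47 and 0 CPM in IR pigs 2, 9, 11 and 14 and at 0.198 to 0.904 CPM in sham pigs. It was below 1 CPM in the scar zone outside IR pigs 9 and 11, did not pass the filter on low counts in the border zone comparison, and was past the threshold in 3 of the 8 fits that left out a pig, so it is given by its values only. *COL6A6*, another later-found collagen VI chain, differed by 0.02 ± 0.30. Of 10 fibrillar chains, 4 were higher, and these were *COL11A1*, *COL24A1*, *COL1A1* and *COL1A2*, with log2 fold changes of 4.58, 2.56, 1.96 and 1.59. Without IR pig 9 that of *COL11A1* was 2.84, and without IR pig 11 those of *COL1A1* and *COL1A2* were 1.25 and 0.83. *COL24A1* was at 1.04, 4.31, 1.35 and 0.204 CPM in IR pigs 2, 9, 11 and 14. In sham pigs it was at 0.181 to 0.432 CPM, close to the floor, and it was tested in 6 of the 8 fits that left out a pig. The median log2 fold change was 1.03 over the fibrillar chains, beside 1.02 over the 10 genes. Of 19 matrix partners of collagens, 8 were higher, among them the small proteoglycans *FMOD* (3.22) and *BGN* (1.82) and the linker proteins *COMP* (5.76) and *MATN4* (1.27). *COMP* was at 101 CPM in IR pig 9, at 1.20 to 3.35 CPM in the other 3 IR pigs and at 0.0791 to 1.30 CPM in sham pigs, and its log2 fold change without pig 9 was 2.07. That of *FMOD* was 2.45 without pig 9. Of 20 genes for collagen synthesis and processing, 3 were higher: *P4HA3* (2.75) and *FKBP10* (1.25), which act on the nascent chain, and *PCOLCE* (1.05), an enhancer of propeptide removal. *P4HA3* was low, at 1.04, 7.95, 7.22 and 0.272 CPM in IR pigs 2, 9, 11 and 14 and at 0.506 to 0.949 CPM in sham pigs. Of 8 proteases linked to the release of endostatin or endotrophin, *CTSL* (1.92) and *MMP9* (3.84) were past the threshold. *MMP9* rested on a single library, with 22.7 CPM in IR pig 9, 0 to 0.52 CPM in the other 3 IR pigs and 0.158 to 0.690 CPM in sham pigs, and its log2 fold change was −0.62 without pig 9. That of *CTSL* was 1.27 without IR pig 11. Of 13 collagen receptors 0 were past the threshold. No gene of these 6 lists was lower, and no gene of them passed an adjusted p-value of 0.05 by edgeR.

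Markers of cell types moved with these collagens. Of 7 tested markers of activated fibroblasts, 5 were higher in the IR scar zone, among them *TNC*, *CTHRC1*, *CILP* and *POSTN*, with log2 fold changes of 3.48, 2.45, 2.28 and 1.85. Without IR pig 9 those of *CTHRC1*, *CILP* and *POSTN* were 1.25, 1.03 and 0.78, and without IR pig 11 that of *TNC* was 2.71. The 8 markers of this list summed to 340 and 253 CPM in IR females 2 and 14 and to 2543 and 1023 CPM in IR males 9 and 11, against 241 to 348 CPM in the sham scar zone. Of 8 fibroblast markers, *FBLN1* (1.41, and 0.82 without IR pig 11) and *PI16* (1.86) were higher, with a summed level of 1132 to 3785 CPM after IR and 1119 to 1323 CPM in sham pigs. Of 8 smooth muscle and pericyte markers 1 was higher, *CNN1* (1.17), and of 3 tested epicardial and mesothelial markers 1, *KRT8* (1.43). None of the 7 cardiomyocyte, 8 endothelial, 8 leucocyte, 3 adipocyte or 5 Schwann cell markers tested was past the threshold in either direction. Cardiomyocyte markers summed to 53953 to 69684 CPM after IR and 59509 to 83758 CPM in sham pigs, and endothelial markers to 931 to 1267 and 1128 to 1284 CPM. *POSTN*, *FBLN1*, *DCN*, *LUM* and *DPT* stand both among the matrix partners and in a marker list. No marker was at the floor in all samples, and the part of cell makeup in the collagen differences was not tested.

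In the border zone the comparison asked whether these collagens differ away from the occluded site. None of the 10 genes was past the threshold at the unadjusted or adjusted p-value, where 0.517% of all 13728 tested genes were higher at the unadjusted one. By edgeR 0 of the 10 and 519 of all genes, and by DESeq2 1 of the 10 and 597 of all genes, had an unadjusted p-value at or under 0.05. Without IR pig 14 the count past the unadjusted threshold was 0, where 0.906% of all genes were higher. Without sham pig 13 it was 1, *COL8A2* with a log2 fold change of 1.12 ± 0.31, where 0.513% of all genes were higher. The highest log2 fold changes were 0.61 ± 0.37 for *COL8A1*, 0.59 ± 0.39 for *COL8A2* and 0.56 ± 0.33 for *COL18A1*, and the lowest was −0.36 ± 0.17 for *COL15A1*. The median over the 10 genes was 0.09.

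Single animals stood out in the border zone. *COL8A2* was at 3.87 CPM in IR pig 2, against 2.25 to 2.45 CPM in the other IR pigs and 1.18 to 3.50 CPM in sham pigs. *COL8A1* was at 101, 27.7, 65.6 and 64.2 CPM in IR pigs 2, 9, 11 and 14, and at 40.0, 60.0, 22.5 and 46.2 CPM in sham pigs 4, 5, 12 and 13. IR pigs 2, 11 and 14 were above all sham pigs and pig 9 was within their range. *COL18A1* was at 563, 165, 367 and 216 CPM in the IR pigs and at 198, 214, 269 and 214 CPM in the sham pigs, so that IR pig 2 was the highest and IR pig 9 the lowest of the 8. *COL15A1* was at 302, 345, 263 and 391.8 CPM after IR and at 320.1, 467, 444 and 441 CPM in sham pigs, and the groups overlapped through sham pig 4. The summed markers of activated fibroblasts were 615, 220, 367 and 251 CPM in the border zone of IR pigs 2, 9, 11 and 14, against 146 to 300.2 CPM in sham pigs. Epicardial and mesothelial markers summed to 67.6, 19.5, 63.1 and 21.0 CPM in these animals, and the sham range was 18.7 to 38.2 CPM. Both sums were above all sham pigs in IR pigs 2 and 11, and their part in these collagen levels was not tested.

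Scar and border zone of the same pigs were then compared. In IR pigs, 4 of the 10 genes were past the unadjusted threshold, all higher in the scar zone, where 1.69% of 14170 tested genes were higher. These were *COL8A2* with a log2 fold change of 2.61 ± 0.67, *COL12A1* with 2.15 ± 0.57, *COL14A1* with 1.29 ± 0.49 and *COL6A3* with 1.09 ± 0.40, and edgeR's adjusted p-value was 0.989 for each. With the pig as a block, as the samples of an animal are paired, 2 of the 10 passed: *COL8A2* with 2.23 ± 0.67 and *COL12A1* with 1.71 ± 0.58, both at an adjusted p-value of 0.431 by edgeR, and 1.5% of all genes were higher in that fit. DESeq2 without the block called *COL8A2* at its adjusted p-value, 0.0474, where 0.0212% of all genes were higher by that rule. With the pig as a block that call was lost, at a DESeq2 adjusted p-value of 0.266, where 0.155% of all genes were higher. Without IR pig 9 or 11 the count was 2, with 0.488% and 0.709% of all genes higher. Without IR pig 2 it was 7 and without IR pig 14 it was 6, with 2.60% and 2.61%. Without IR pig 9 the log2 fold changes of *COL8A2* and *COL12A1* were 2.00 and 1.32. In sham pigs 0 of the 10 passed, where 0.029% of 13803 genes were higher at the unadjusted p-value. The largest of the sham differences, 0.47 ± 0.26 for *COL12A1*, had an adjusted p-value of 1.00 by edgeR. With the pig as a block the sham difference of *COL12A1* was 0.53 ± 0.13, with an unadjusted p-value of 0.00272 and an adjusted p-value of 0.931.

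**Figure D3:**
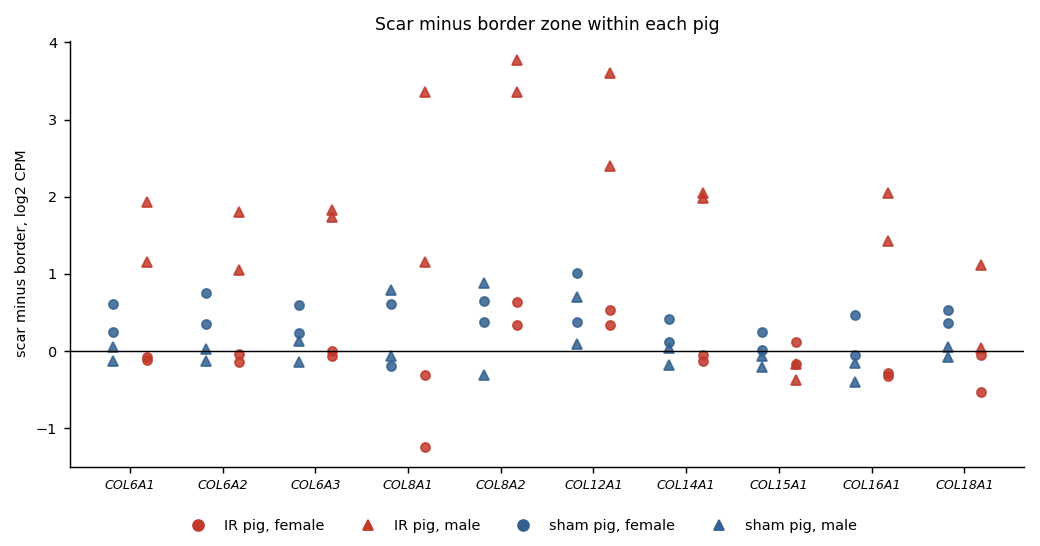
Difference of log2 CPM, scar minus border zone (y axis), within each of the 8 pigs for the 10 genes (x axis), with IR pigs in red, sham pigs in blue, circles for females and triangles for males. For *COL8A2* and *COL12A1* all 4 IR pigs are above 0, and males 9 and 11 are far above the other 6 pigs, while for *COL15A1* all 8 pigs lie between −0.37 and 0.25.

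The differences within pigs show which animals carry the zone contrast. *COL8A2* exceeded its border zone level in the scar zone by 0.64, 3.77, 3.36 and 0.34 on the log2 CPM scale in IR pigs 2, 9, 11 and 14, and the sham differences were 0.38, 0.65, 0.89 and −0.31 in pigs 4, 5, 12 and 13. *COL12A1* was higher in the scar zone by 0.34, 3.60, 2.40 and 0.53 in the IR pigs and by 1.01, 0.37, 0.70 and 0.09 in the sham pigs, so all 8 pigs had more of it in the scar zone. The means were 1.72 ± 1.56 for IR and 0.54 ± 0.40 for sham pigs (SD, n = 4), and a two-sided exact permutation test of the 4 IR against the 4 sham differences of *COL12A1* gave p = 0.286. *COL8A1* was higher in the scar zone by 3.36 and 1.16 in pigs 9 and 11, and its differences in pigs 2 and 14 were −1.24 and −0.31. For 8 of the 10 genes the males, pigs 9 and 11, both exceeded all sham pigs, which was true of 17.4% of 14278 genes. The exact permutation p-values of the 10 genes ran from 0.257 for *COL8A2* to 0.943 for *COL18A1*, where the smallest p that 4 against 4 pigs allow is 0.0286.

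The test of whether the IR effect differs between zones gave 3 of the 10 genes past the unadjusted threshold, where 1.32% of 14278 genes were higher. The difference of log2 fold changes, scar minus border zone, was 2.33 ± 0.81 for *COL8A2*, 1.69 ± 0.66 for *COL12A1* and 1.22 ± 0.55 for *COL14A1*, and the adjusted p-value was 1.00 for each by edgeR. With the pig as a block only *COL8A2* passed at the unadjusted p-value, with 1.86 ± 0.80 and an adjusted p-value of 0.702, and 1.39% of all genes were higher in that fit. Leaving out a pig gave 0 of the 10 without IR pig 9, 1 without IR pig 11 or sham pig 13, 2 without sham pig 4, 5 or 12, and 5 without IR pig 2 or 14. The share of all genes higher ran from 0.559% without IR pig 9 to 2.42% without IR pig 2. The difference without IR pig 9 was 1.68 for *COL8A2* and 0.82 for *COL12A1*. For *COL15A1* the difference between zones was −0.13 ± 0.23 and for *COL18A1* −0.19 ± 0.42. The IR and sham pigs of both zones enter this test and the comparisons above, so these counts are not independent of them.

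In the scar zone the IR effect was higher in the 2 male than in the 2 female IR pigs for 9 of these collagens, past the threshold for 8 of them. With 2 pigs per sex and surgery, the difference of the IR effect, male minus female, was past the threshold at the unadjusted p-value for 8 of the 10 genes, all higher in males, where 6.2% of 14624 genes were higher. At edgeR's adjusted p-value it was past the threshold for 4 of the 10, where 0.998% of all genes were higher. These 4 were *COL6A3* with 2.26 ± 0.25 and an adjusted p-value of 0.0147, *COL8A1* with 2.66 ± 0.41 and 0.0343, *COL14A1* with 1.78 ± 0.28 and 0.0369, and *COL16A1* with 2.04 ± 0.34 and 0.0410. *COL6A1*, at 1.85 ± 0.35, had an adjusted p-value of 0.0506 by edgeR. *COL15A1* and *COL18A1*, the multiplexins, differed between the sexes by −0.35 ± 0.22 and 0.56 ± 0.38 and were not past the threshold.

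Within males the log2 fold change of IR over sham was 3.42 ± 0.32 for *COL8A2*, 2.45 ± 0.34 for *COL12A1*, 2.37 ± 0.30 for *COL8A1* and between 0.62 and 1.97 for the 6 other genes that were higher. Within females it was 1.36 ± 0.33 for *COL8A2* and 0.47 ± 0.33 for *COL12A1*. The remaining fold changes in females were between −0.54 for *COL6A2* and 0.07 for *COL18A1*. Both male IR pigs were above all sham pigs for 9 of the 10 genes, which was true of 22.6% of all 14023 tested genes. Both female IR pigs were above all sham pigs for 1, *COL8A2*, which was true of 6.77%. The lower of these females was pig 14, the library with Y-linked counts, at 3.13 CPM beside a highest sham value of 2.81 CPM. *COL15A1* was lower in both sexes, by −0.70 ± 0.15 in males and −0.35 ± 0.15 in females.

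**Figure D4:**
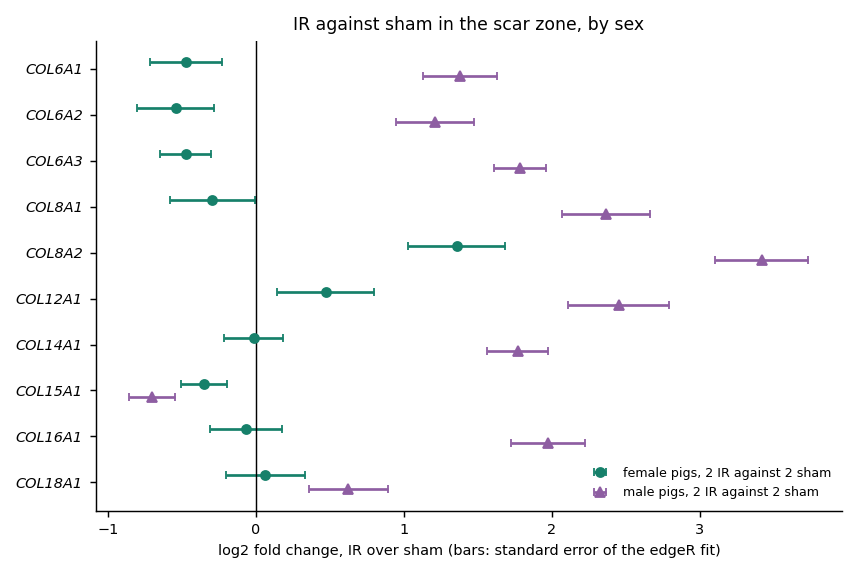
Log2 fold change of IR over sham in the scar zone (x axis) for each gene, in females (circles) and males (triangles), 2 IR against 2 sham pigs each, with bars for the standard error of the edgeR fit. Male values exceed female values for all genes but *COL15A1*, and *COL8A2* is the gene with a female value above 1, at 1.36.

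Several measures moved with this contrast of the sexes. The male IR scar libraries were those with more counts. By the same contrast the IR effect was higher in males for 6 of 7 tested activated fibroblast markers at the unadjusted p-value and 2 at the adjusted one, and 6 of 8 fibroblast markers at the unadjusted and 4 at the adjusted one. Fibroblast markers summed to 2626 and 3785 CPM in IR males 9 and 11 and to 1132 and 1155 CPM in IR females 2 and 14. Of the leucocyte markers 2 of 8, and of the epicardial and mesothelial markers 2 of 4, had a higher IR effect in males at the unadjusted p-value and 0 at the adjusted one. Leucocyte markers summed to 352 and 357 CPM in IR males and to 167 and 213 CPM in IR females, against 132 to 267 CPM in sham pigs. Epicardial and mesothelial markers summed to 74.4 and 75.2 CPM in IR males and to 25.7 and 17.1 CPM in IR females, against 14.4 to 32.5 CPM in sham pigs. Of 7 cardiomyocyte markers 1 had a lower IR effect in males, *PLN*, a regulator of the calcium pump, with a log2 difference of the IR effect of −1.81 ± 0.25 and an adjusted p-value of 0.0243 by edgeR. With 1 pig left out that adjusted p-value ran from 0.0238 to 0.111, and it was above 0.05 without IR pig 14 or any 1 of the sham pigs. Cardiomyocyte markers summed to 53953 and 66620 CPM in IR males and 69684 and 68391 CPM in IR females. None of the smooth muscle and pericyte, endothelial, adipocyte or Schwann cell markers was past the unadjusted threshold. Over all genes the split at the unadjusted p-value was 907 with a higher and 432 with a lower IR effect in males, and on log2(TPM + 1) it was 1188 higher and 87 lower, with a median of all genes of 0.38. DESeq2 called 8 of the 10 at its adjusted p-value, where 3.13% of all genes were higher. Leaving out pigs moved the adjusted count of the 10 and that of all genes. Without sham pig 12 or 13 it was 0 of the 10 and 0% of all genes, and without IR pig 14 it was 0 of the 10 and 0.152% of all genes. Without sham pig 4 or 5 it was 1 of the 10, with 0.119% and 0.283% of all genes, and without IR pig 2 it was 5 of the 10 with 0.596%. At the unadjusted p-value 8 or 9 of the 10 passed in each fit that left out a pig, with 4.51% to 6.93% of all genes higher. As 2 animals stand for each sex and surgery, sex and animal cannot be told apart, and the part of depth and of cell makeup was not tested.

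In the border zone the same contrast gave 0 of the 10 genes at either p-value by edgeR or DESeq2. Of 14244 genes, 1.61% had a higher IR effect in males at the unadjusted and 0.00702% at the adjusted p-value. The difference was −1.42 ± 0.70 for *COL8A2*, 0.04 ± 0.38 for *COL6A3* and −0.27 ± 0.66 for *COL8A1*. It was −0.54 for *COL8A2* without sham pig 13 and −1.03 for *COL8A1* without IR pig 11. By unadjusted p-value alone 0 of the 10 were at or under 0.05 with edgeR. At the unadjusted p-value 2.61% of all genes had a lower IR effect in males. Without IR pig 14 the count was again 0. Leaving out another pig gave up to 2 of the 10 with a lower IR effect in males: 2 without IR pig 11, where 3.65% of all genes were lower, 2 without sham pig 12, where 1.97% were, and 1 without sham pig 5, where 2.97% were. *COL8A2* in the border zone was higher by 1.37 ± 0.51 on the log2 scale in IR females than in sham females and differed by −0.05 ± 0.48 between IR and sham males.

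Ratios of chains were taken within each sample. Ratios and their medians are given without a pseudocount, and log2 ratios and their differences with 0.1 TPM added to each chain. The ratio of *COL6A2* to *COL6A1*, on the TPM scale, lay between 0.782 and 0.996 in all scar zone samples and between 0.821 and 0.934 in all border zone samples. *COL6A3* to *COL6A1* lay between 0.321 and 0.589 in the scar zone, with the highest value in IR pig 11. *COL8A2* to *COL8A1* had a scar zone median of 0.105 after IR and 0.0413 in sham pigs, a mean log2 difference of 1.12 for which a two-sided exact permutation test gave p = 0.0857. Without the pseudocount, which weighs on *COL8A2* at its low TPM, that difference was 1.34 with the same exact p. The ratio of *COL18A1* to *COL15A1* had a scar zone median of 1.04 after IR and 0.527 in sham pigs, and 3 of the 4 IR pigs were above all sham pigs. Its mean log2 difference was 0.89 with an exact permutation p of 0.114. In the border zone the medians of that ratio were 0.831 and 0.446, with p = 0.257 by the same exact test.

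Collagen VI was also set against *COL1A1*, the main chain of scar fibrils. The log2 ratio of *COL6A1* to *COL1A1* was −1.33, −2.07, −3.14 and −1.31 in the scar zone of IR pigs 2, 9, 11 and 14, and −1.17, −0.82, −0.83 and −1.21 in sham pigs 4, 5, 12 and 13. All 4 IR pigs were lower than all 4 sham pigs. The mean difference was −0.95, and the exact permutation p of 0.0286 is the smallest that this design allows. Without IR pig 11 the mean difference was −0.56. The value adjusted over the 16 ratio tests was 0.457. *COL14A1* to *COL1A1* had a mean log2 difference of −0.58 and *COL12A1* to *COL1A1* of 0.01, with exact permutation p-values of 0.114 and 1.00. In the border zone the *COL6A1* to *COL1A1* ratio differed by −0.13, with an exact permutation p of 0.486.

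**Figure D5:**
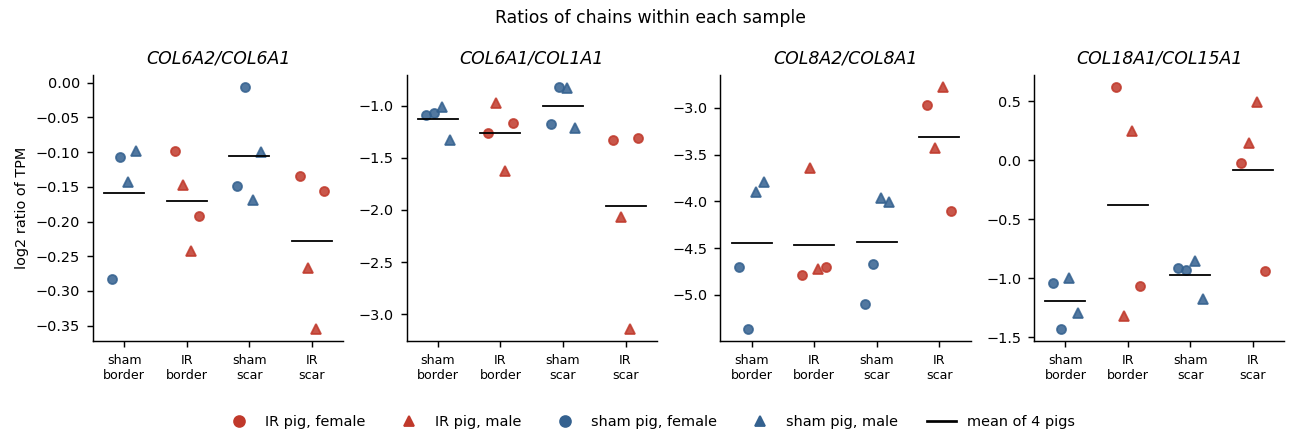
Log2 ratio of TPM within each sample (y axis) for 4 pairs of chains, by zone and surgery (x axis), with circles for females, triangles for males and a line at the mean of 4 pigs. In the IR scar zone *COL6A1*/*COL1A1* is below sham in all 4 pigs, and *COL6A2*/*COL6A1* lies between −0.36 and −0.0056 in all 16 samples.

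Among genes with a symbol, those whose level followed each collagen most closely were found by Pearson's r of log2 CPM over the 16 samples. Rows without a symbol were left out of this search. The samples share pigs in pairs, differ in depth, and include both surgeries. These correlations are a description and carry no test. *COL6A1* and *COL6A2* were each other's closest match with r = 0.987, and *COL6A3* was most like *MRC2* (0.957), an endocytic collagen receptor, *P3H3* (0.956) and *COL1A2* (0.956). *COL8A1* was most like *CCDC80* (0.947), *PI16* (0.921) and *THBS4* (0.912), and *COL8A2* like *PTN* (0.962), *COL11A1* (0.953) and *LTBP2* (0.946). For *COL12A1* these were *ANTXR1* (0.932), *PTN* (0.925) and *PRELP* (0.919), for *COL14A1* *LHFPL6* (0.965), *ANTXR1* (0.960) and the cross-linking enzyme *LOX* (0.958), and for *COL16A1* *THBS2* (0.962), *SEC61A1* (0.959) and *FBLN7* (0.956). *COL18A1* was most like *TUBB2B* (0.910), the smooth muscle gene *CNN1* (0.901) and *SHISA4* (0.901). *COL15A1* had no matrix gene among its nearest 3, which were *HMGCLL1* (0.940), *ADCY6* (0.914) and *NUDT16* (0.914), and its r with *COL6A1* was −0.455.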

How the data were processed

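Polyadenylated RNA of the scar and border zones was sequenced as stranded libraries. The authors trimmed reads with Trimmomatic 0.33, aligned them with HISAT2 2.0.5 and quantified Ensembl pig cDNA with kallisto 0.43.1 (versions from the submitters' processing notes), without stating the genome build in the sources used here. They deposited estimated counts, not scaled for depth, and TPM, scaled for transcript length and depth. Of 7534 rows listed by Ensembl identifier, 915 matched a gene name table. Kallisto divides reads shared by similar transcripts, so chains of related sequence depend on that division.

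Estimated counts (15427663 to 49045206 per library) were rounded and fitted in R 4.3.3 with edgeR 4.0.16: TMM scaling, filterByExpr (minimum count 10, total 15), quasi-likelihood test, Benjamini-Hochberg adjustment over all genes tested. The study used RUVSeq with control genes not given in the sources used here, so no such factor was in the main test, and 1 factor by its RUVg method, written out without the package, was an alternative. Genes were called when they changed 2-fold or more with a p-value no higher than 0.05. CPM are TMM-scaled over 16 samples, and log2 CPM has a prior count of 2. Log2 ratios of TPM have a pseudocount of 0.1. The edgeR and DESeq2 tests of IR against sham in the scar zone, and the edgeR sex contrast there, were run on simulated counts. These counts had the same dispersion in every gene and group. In the data the 10 genes varied more among IR than among sham scar zone samples, so the simulation does not show how the tests perform here. The other tests were not simulated. The replicate number is the animal, so scar and border samples are paired by design: deviations from the group means correlated within each of the 8 pigs, with r from 0.354 to 0.692.

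Alternatives were DESeq2 1.42.0, upper-quartile scaling, no filter, limma 3.58.1 (trended) on log2(TPM + 1) or log2(TPM + 0.1) for genes of at least 1 TPM in at least 4 samples (which leaves out *COL8A2*) or unfiltered, a sex covariate, all 16 samples in 1 fit, that 1 factor of unwanted variation from the 5000 genes with the largest p-values, the pig as a block, and each pig left out. DESeq2 with the block, the sex contrast in the border zone and chain ratios without a pseudocount were added after seeing the data. The collagen genes and the lists were chosen with earlier results of these data known. Named genes are the 10 collagens, up to 4 genes per list by p-value among those past the unadjusted threshold in the scar zone, and the 3 genes with a symbol most correlated with each collagen. *DCN*, *LUM* and *DPT* are named only because they stand both among the matrix partners and in a marker list. *COL6A6*, *PLN*, *DDX3Y* and *KDM5D* were named after their values were seen.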

Additional observations from a re-analysis of the deposited data

Results flagged for a closer look

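In 60 sets of 4 values examined, 4 single samples lay far from the other 3 of their group, and chance gives about 1 in 20. *COL8A2* was at 3.87 CPM in the border zone of IR pig 2 and at 3.50 CPM in the border zone of sham pig 13, the highest of each group. *COL15A1* was at 320.1 CPM in the border zone of sham pig 4, the lowest of its group. *COL18A1* was at 209 CPM in the scar zone of IR pig 14, the lowest of its group, and that is the library with Y-linked counts.

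The effect of IR in the scar zone differed between males and females by the interaction test of edgeR, at an adjusted p-value, for *COL6A3* (log2 difference 2.26), *COL8A1* (2.66), *COL16A1* (2.04) and *COL14A1* (1.78). For each, both male IR pigs were above all sham pigs, which was true of 22.6% of all 14023 tested genes. With 2 animals per sex and surgery these differences rest on 8 libraries, and sex and animal cannot be told apart.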

How the results depend on the processing

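None of the 10 genes past a threshold changed direction under the alternatives run. Differences that were not past it changed sign in places, such as the IR minus sham difference of the scar minus border values of *COL8A1*, −0.42 to 1.11 with a pig left out. In the scar zone the count of the 10 genes past the unadjusted threshold, 5, was 1 under each limma fit (log2(TPM + 1), log2(TPM + 0.1), no filter), where 1.04%, 1.65% and 0.482% of all genes were higher, against 2.74%. It was 2 with sex as a covariate or 1 factor of unwanted variation, where 1.94% and 1.78% were. DESeq2 called 1 at its adjusted p-value instead of 0, where 0.264% of all genes were higher. For scar against border zone in IR pigs the count, 4, was 2 under each limma fit (0.190% to 0.616% of all genes, against 1.69%), 2 with the pig as a block (1.5%) and 2 with DESeq2 and the block (1.33%). DESeq2 without the block called 1 at its adjusted p-value instead of 0, where 0.0212% of all genes were higher. For the zone difference the count, 3, was 0 under each limma fit (0.168% to 0.357%, against 1.32%), 1 with the block (1.39%) and 0 with DESeq2 and the block (1.13%). The DESeq2 adjusted call of *COL8A2* between zones in IR pigs, at 0.0474, was lost with the block, at 0.266. Between zones in sham pigs the count was 0 with and without the block. For the sex difference in the scar zone the adjusted count, 4, was 8 with DESeq2 (3.13% of all genes, against 0.998%) or without a filter (1.72%), 7 on log2(TPM + 1) (3.34%) and 2 on log2(TPM + 1) without a filter (0.541%).

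Leaving out 1 pig gave 2 to 6 genes in the scar zone, 0 to 1 in the border zone, 2 to 7 between zones in IR pigs, 0 to 0 in sham pigs, 0 to 5 for the zone difference, and 0 to 5 adjusted or 8 to 9 unadjusted for the sex difference.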
